A study of Mus musculus with 7 samples.

Results

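Lung epithelial and lung adenocarcinoma marker genes were examined in osteoblasts, the bone-forming cells, of mice with and without lung tumors. The 10 genes were a list of named markers: Cdh1, Cldn18, Epcam, Nkx2-1, Sftpc, Sftpb, Sftpa1, Scgb1a1, Krt8 and Krt18. All 10 had an Entrez gene ID among the 23725 IDs of each count file. The question was whether any of them was counted in tumor-bearing mice alone or was as high in tumor-free mice.

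All mice were male on the C57BL/6 background. They carried the allele p53Flox/Flox, in which Cre recombinase deletes p53, and a GFP reporter for osteocalcin (Ocn), a protein of mature osteoblasts. The tumor-bearing group held 4 mice, killed 14 weeks after intratracheal adenovirus expressing Cre (AdCre). Replicates 1 to 3 of this group were 31 weeks old and replicate 4 was 23 weeks old. The tumor-free group held 3 mice of the same genotype, replicates 1 and 2 at 31 weeks and replicate 3 at 23 weeks. The labels do not say what the tumor-free mice received in the airways. The sort kept cells without CD45 (leukocytes), CD31 (endothelium) and Ter119 (erythroid cells) that were positive for GFP. It used collagenase-digested bone pooled with lineage-depleted marrow, and took 2000 cells per mouse for 1 library.

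Lung epithelium is made of alveolar and airway cells. Alveolar type 2 cells secrete surfactant and are a cell of origin of lung adenocarcinoma, alveolar type 1 cells form the gas exchange surface, and club cells line the bronchioles. These cells share with other epithelia the adhesion and junction proteins E-cadherin, EpCAM and claudins, and the keratins of simple epithelia. In the lung the transcription factor NKX2-1 drives surfactant genes. Cldn18 has separate first exons with lung and stomach promoters, and its product has also been studied in bone, where mice without it have low bone mass.

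Counts per gene cannot tell the first exons of Cldn18 apart, and Cldn18 had the most counts of the 10 genes. Its alternative promoters are therefore shown, beside the promoter of Epcam, which was also counted, and that of Sftpb, a surfactant gene near 0. Each is the 250 bases before a RefSeq transcript start on GRCm38.p6, the assembly of mm10, written 5′ to 3′ on the gene's strand. Capitals mark the letters CTCAAG, a core of NKX2-1 binding sites, and CACCTG, an E-box bound by repressors of epithelial genes, each on either strand (CTTGAG and CAGGTG on the other).
Cldn18, upstream start (chr9:99717268-99717517, minus strand): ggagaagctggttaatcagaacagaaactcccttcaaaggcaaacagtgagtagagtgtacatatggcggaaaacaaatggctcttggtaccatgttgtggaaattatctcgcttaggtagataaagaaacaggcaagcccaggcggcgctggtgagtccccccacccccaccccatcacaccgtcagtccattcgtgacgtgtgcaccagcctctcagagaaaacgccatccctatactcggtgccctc
Cldn18, downstream start (chr9:99710064-99710313, minus strand): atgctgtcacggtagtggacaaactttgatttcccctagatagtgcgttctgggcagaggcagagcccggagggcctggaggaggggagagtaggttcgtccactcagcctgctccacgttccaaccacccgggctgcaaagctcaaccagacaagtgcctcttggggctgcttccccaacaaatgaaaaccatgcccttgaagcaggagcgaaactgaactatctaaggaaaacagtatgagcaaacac
Epcam (chr17:87635729-87635978, plus strand): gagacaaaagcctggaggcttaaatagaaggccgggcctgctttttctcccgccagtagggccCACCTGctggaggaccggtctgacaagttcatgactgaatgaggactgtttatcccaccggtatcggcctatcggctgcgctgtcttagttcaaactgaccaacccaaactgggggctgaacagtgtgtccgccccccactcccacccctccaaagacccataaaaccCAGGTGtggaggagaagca
Sftpb (chr6:72304360-72304609, plus strand): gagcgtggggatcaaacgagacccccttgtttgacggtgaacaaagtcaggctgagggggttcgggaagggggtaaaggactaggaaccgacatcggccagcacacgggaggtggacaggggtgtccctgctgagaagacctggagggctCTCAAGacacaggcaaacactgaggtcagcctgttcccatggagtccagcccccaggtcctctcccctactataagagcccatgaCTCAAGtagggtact
The Sftpb window held the NKX2-1 core 2 times, and the windows of Cldn18 and Epcam did not hold these letters. The Epcam window held the E-box 2 times. Of 32851 promoter windows of this length, 13.3% held the NKX2-1 core and 17.2% the E-box. Promoters were available for 7 of the 10 genes. Of those not shown, the Sftpa1 window held the NKX2-1 core 1 time. The windows of Nkx2-1, which was counted, and of Krt8 and Krt18, which were near or at 0, held the E-box 1 time each. These matches describe letters and not bound sites.

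Library totals ranged from 77127 to 169774 counts in tumor-bearing and from 102144 to 122911 counts in tumor-free mice. A count of 0 still allows 3 counts, which is 17.7 to 38.9 CPM (counts scaled to a library of 1e6) in single libraries. Over a group it allows 6.16 CPM in the 4 tumor-bearing and 8.73 CPM in the 3 tumor-free libraries. These limits and the intervals below cover counting error only. All 11 osteoblast markers listed had counts in both groups, among them Col1a1, a chain of type I collagen, with 23 to 96 counts per library and Runx2, the osteoblast transcription factor, with 7 to 35. Others were sparse: Bglap, which encodes osteocalcin, the protein of the sorting reporter, had 0 to 2 counts per library, the osteoblast factor gene Sp7 0 to 2, the osteocyte gene Dmp1 0 to 2 and Alpl, alkaline phosphatase, 1 to 7. Ptprc, which encodes CD45, had 0 to 2 counts and Pecam1, which encodes CD31, had 0 everywhere. Trp53, which encodes p53, had 0 to 1 counts, and 3′ counts do not show whether the allele had recombined.

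The 10 genes fell into a counted and a near-absent set. Cldn18, Epcam, Cdh1 and Nkx2-1 had counts in all 7 libraries, tumor-free ones included. The surfactant genes Sftpb, Sftpa1 and Sftpc and the keratin gene Krt8 had 1 to 5 counts in all libraries together, and Scgb1a1 and Krt18 had 0. At least 1 count was seen for 8 of the 10 genes, against 56.2% of all 23725, and 2 of 10 were at 0 in all libraries, against 43.8%. Single libraries held counts of 4 to 7 of the 10 genes, the most in tumor-bearing replicate 4.

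**Figure D1:**
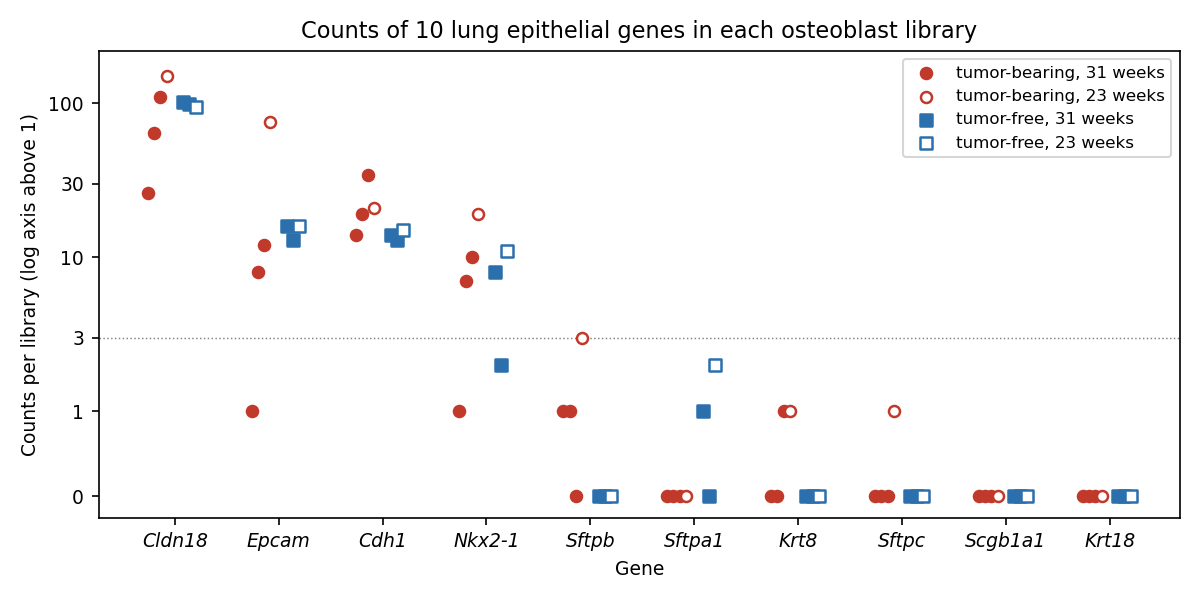
Counts per library (vertical axis, logarithmic above 1) of the 10 genes (horizontal axis), with circles for tumor-bearing and squares for tumor-free mice, filled at 31 weeks and open at 23 weeks. The dotted line marks 3 counts, the limit that a 0 allows. Cldn18, Epcam, Cdh1 and Nkx2-1 have counts in every library of both groups, and the other 6 genes stay at 0 to 3.

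Per kilobase of the longest GENCODE transcript, Cldn18 was the highest of the 10 genes, with 155 counts per kb over all libraries (rank 370 of 23035 genes with a transcript). Epcam followed with 69.6 (rank 924), Cdh1 with 29.3 (rank 1828) and Nkx2-1 with 20.6 (rank 2281). The libraries are of 3′ ends, in which counts need not grow with transcript length, so these ranks depend on the division. Before it, Epcam and Cdh1 were close, with 142 and 130 counts. Sftpb had 3.23, Sftpc 1.26, Sftpa1 1.05 and Krt8 1.02 counts per kb. The order of the last 4 rests on 1 to 5 counts each and is not resolved. In lung epithelium Sftpc and Scgb1a1 are among the most abundant transcripts, and here they had 1 and 0 counts. No lung library was measured beside them, and the source of the lung gene counts was not tested.

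Nkx2-1 (chromosome 12, 56531935 to 56536908), the lineage transcription factor of lung and thyroid, had 1, 7, 10 and 19 counts in tumor-bearing replicates 1 to 4 and 8, 2 and 11 counts in tumor-free replicates 1 to 3. The groups overlapped, with tumor-bearing replicate 4 highest and tumor-bearing replicate 1 lowest. The level was 68.3 ± 48.0 CPM (SD, n = 4) with a tumor and 61.1 ± 38.6 CPM (SD, n = 3) without, a difference well within the spread. Nkx2-1 had too few counts to pass the low count filter. In the fit without that filter its log2 fold change, tumor-bearing over tumor-free, was 0.36 (SE 0.54, adjusted p = 0.823 over 13344 genes, edgeR).

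Cldn18 (chromosome 9, 99690796 to 99717267), a claudin of tight junctions, had 26, 64, 110 and 151 counts in tumor-bearing and 102, 99 and 95 counts in tumor-free replicates. On the scaled level the tumor-bearing libraries had 357, 673, 618 and 1030.1 CPM and the tumor-free ones 992, 840.4 and 766 CPM. The 3 tumor-bearing libraries of 31 weeks lay below every tumor-free library, and that of 23 weeks lay above them all. This split was described after the values were seen, and its share over all genes was not counted. The group means were 669 ± 277 CPM (SD, n = 4) and 866 ± 115 CPM (SD, n = 3). The log2 fold change with age in the model was -0.37 (SE 0.31, 95% interval -1.09 to 0.36, adjusted p = 0.990, edgeR's quasi-likelihood test). Without tumor-bearing replicate 4 the log2 fold change was -0.77 (SE 0.33, adjusted p = 0.995, edgeR).

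Epcam (chromosome 17, 87635979 to 87651127), an adhesion protein of most epithelia and carcinomas, had 1, 8, 12 and 76 counts in tumor-bearing and 16, 13 and 16 counts in tumor-free replicates. Tumor-bearing replicate 4 alone, with a total of 141564 counts not the deepest library, held 53.5% of all Epcam counts. Such a concentration was seen for 6.34% of the 4445 genes with at least 20 counts (1 library with 50% or more of the counts), and for 1 of the 4 counted lung genes. The scaled levels were 13.7, 84.1, 67.4 and 518 CPM in tumor-bearing and 156, 110.4 and 129 CPM in tumor-free replicates. The other 3 tumor-bearing libraries lay below all tumor-free ones, a split whose share over all genes was not counted. Epcam and Cldn18 went together across the libraries (Pearson r = 0.94), so the 2 genes are not separate observations of it. The means were 171 ± 234 CPM (SD, n = 4) and 132 ± 22.8 CPM (SD, n = 3), with a log2 fold change of 0.16 (SE 0.70, 95% interval -1.49 to 1.81, adjusted p = 0.990, edgeR). Without tumor-bearing replicate 4 the sign turned, with a log2 fold change of -1.19 (SE 0.58, adjusted p = 0.995, edgeR). The sign also turned without tumor-free replicate 3, the other mouse of 23 weeks, to -1.13 (adjusted p = 0.998, edgeR). In that fit tumor-bearing replicate 4 is the only mouse of 23 weeks, and the age term fits it alone. This turn is therefore not separate from the one without tumor-bearing replicate 4.

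Cdh1 (chromosome 8, 106603350 to 106670247), which encodes E-cadherin, the adhesion protein of epithelial adherens junctions, had 14, 19, 34 and 21 counts in tumor-bearing and 14, 13 and 15 counts in tumor-free replicates. The scaled levels were 192, 199.7, 191 and 143 CPM with a tumor and 136, 110.4 and 121 CPM without. All 4 tumor-bearing libraries lay above all 3 tumor-free ones, as they did for 2.2% of the 2495 genes tested. The groups did not overlap in either direction for 3.53% of the genes tested and for 1 of the 3 lung genes among them, and the tumor-bearing libraries were all lower for 1.32% and for 0 of these 3. Replicate 4 of the tumor-bearing group, the highest library for Cldn18, Epcam and Nkx2-1, was the lowest of its group for Cdh1. The means were 181 ± 25.8 CPM (SD, n = 4) and 122 ± 13.0 CPM (SD, n = 3), and the log2 fold change was 0.53 (SE 0.26, 95% interval -0.07 to 1.14). Cdh1 did not pass the test (unadjusted p = 0.0737, adjusted p = 0.990, edgeR).

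**Figure D2:**
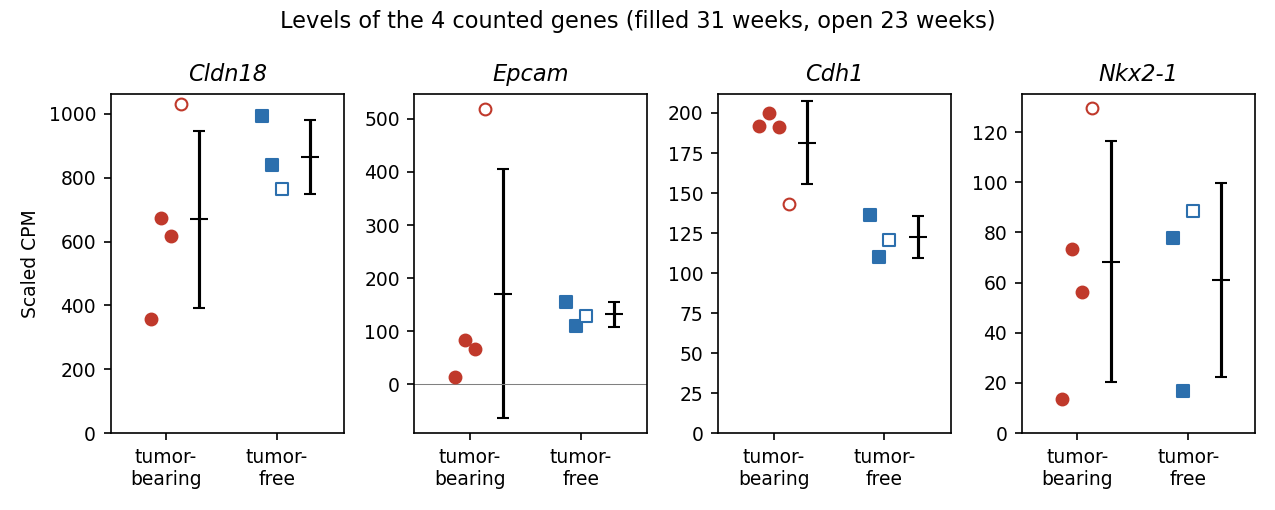
Scaled CPM (vertical axis, a separate scale for each gene) of the 4 counted genes in tumor-bearing (circles) and tumor-free mice (squares), filled at 31 weeks and open at 23 weeks, with bars for the mean ± SD. The open circle, tumor-bearing replicate 4, is the highest library for Cldn18, Epcam and Nkx2-1 and the lowest tumor-bearing one for Cdh1.

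Of the 10 genes, 3 passed the low count filter (Cdh1, Cldn18 and Epcam) and 0 were called. The same fit called 0% of the 2495 genes tested, with 67 genes at an unadjusted p under 0.05. DESeq2 called 0 genes, with 49 unadjusted. In the fit without the filter, 8 of the 10 genes were among 13344 tested and 0 were called (0% of the genes tested, 456 unadjusted, edgeR). The median log2 fold change of the 3 genes was 0.16, beside 0.04 over all genes tested. The intervals of the 3 genes include differences in both directions, and a p above the threshold does not show equal levels.

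Age was the label that varied beside the tumor. Within 31-week mice, Cldn18 averaged 549 CPM in 3 tumor-bearing and 916 CPM in 2 tumor-free libraries, Epcam 55.1 and 133 CPM, and Cdh1 194 and 123 CPM. At 23 weeks each group has 1 mouse, so values there have no replicate. A term for the difference of the tumor effect between ages (31 minus 23 weeks, added after seeing the data) was -3.14 for Epcam (SE 0.86, unadjusted p = 0.00896, adjusted p = 0.999, edgeR). It was -1.14 for Cldn18 (SE 0.60) and 0.42 for Cdh1 (SE 0.60), with an adjusted p of 0.999 for each (edgeR). This term was called for 0% of the 2495 genes, with 99 unadjusted (edgeR).

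**Figure D3:**
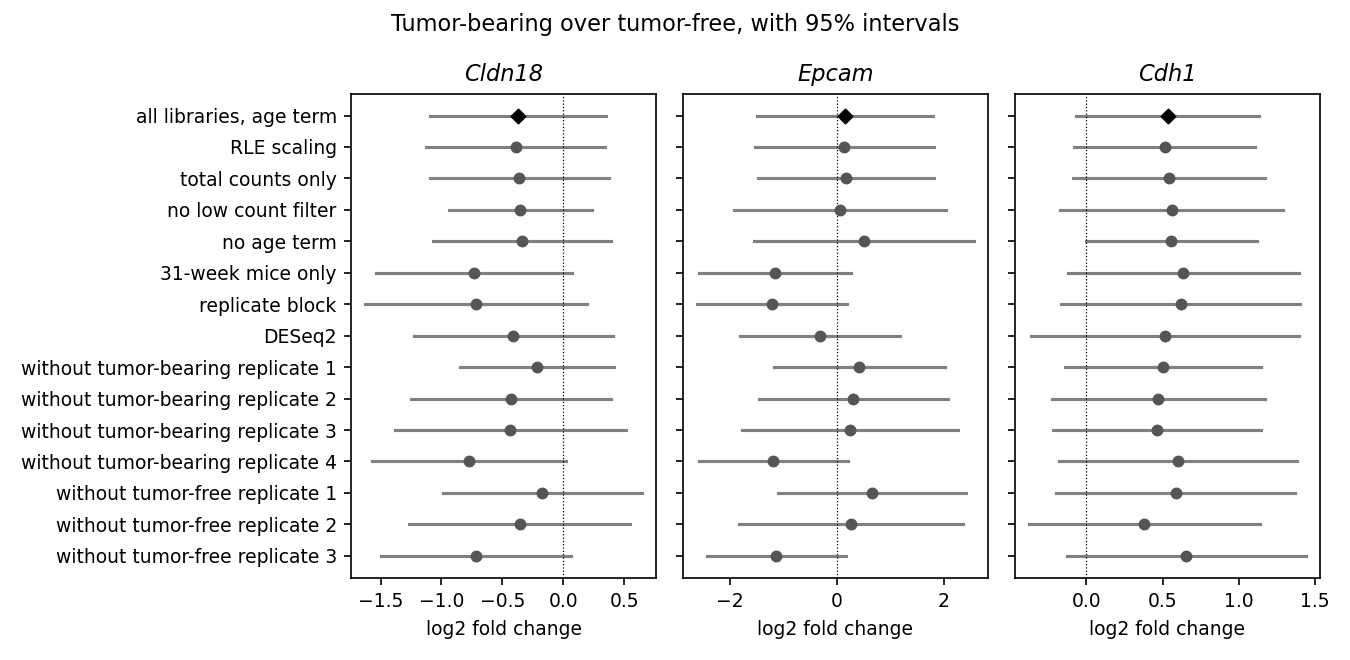
Log2 fold change, tumor-bearing over tumor-free (horizontal axis), of Cldn18, Epcam and Cdh1 under each setting (vertical axis), with 95% intervals as lines (for DESeq2, from the normal distribution). The intervals all span 0; Cdh1 stays above 0 and Cldn18 below 0 in these settings, while Epcam lies between -1.22 and 0.67.

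In the summed level of the 10 genes the libraries had 590, 1040.6, 938 and 1856 CPM with a tumor and 1372, 1078 and 1120.2 CPM without. The means were 1106 ± 536 CPM (SD, n = 4) and 1189.9 ± 159 CPM (SD, n = 3). The tumor-free libraries lay inside the range of the tumor-bearing ones. Most of this sum is Cldn18. In these bulk libraries fewer cells of a type and less RNA per cell cannot be told apart.

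The surfactant genes Sftpb, Sftpa1 and Sftpc were counted at the limit of detection. Sftpd, a surfactant gene outside the list, was not, with 5 to 86 counts per library and 264 in all. Sftpb (chromosome 6, 72304610 to 72314373), which encodes a hydrophobic surfactant protein, had 1, 1, 0 and 3 counts in tumor-bearing and 0 in each tumor-free replicate. Over the group this is 10.3 CPM (95% exact Clopper-Pearson interval 3.33 to 24.0). The interval reaches below the 8.73 CPM that 0 counts allow in the tumor-free group, so a difference was not detectable at this depth. In the fit without the low count filter it was not called (adjusted p = 0.793, edgeR). Sftpa1 (chromosome 14, 41131788 to 41136373), a surfactant collectin, showed the other pattern, with 0 counts in all 4 tumor-bearing libraries and 1, 0 and 2 in the tumor-free ones. Sftpc (chromosome 14, 70520941 to 70524081), specific to alveolar type 2 cells, had 1 count, in tumor-bearing replicate 4. Scgb1a1 (chromosome 19, 9083642 to 9087956), the secretoglobin of club cells, had 0 counts in all 7 libraries.

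The keratin partners of simple epithelia were nearly absent. Krt8 (chromosome 15, 101996711 to 102004342) had 1 count in each of tumor-bearing replicates 3 and 4, and Krt18 (chromosome 15, 102028216 to 102032026) had 0 in all 7 libraries. GENCODE lists a Krt8 pseudogene, with which reads can be shared, so the Krt8 value is uncertain. In simple epithelia these keratins are abundant beside E-cadherin and EpCAM. Here Epcam and Cdh1 had 142 and 130 counts in all, against 2 and 0 for the keratins. No epithelial library was measured beside them, and the source of these counts was not tested.

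Confinement to one group was therefore seen only at 1 to 5 counts. Counts in tumor-bearing and none in tumor-free libraries were found for 3 of the 8 genes with counts (Sftpb, Sftpc and Krt8), against 18.8% of the 13344 genes with counts. The opposite held for 1 gene, Sftpa1, against 12.7% of those genes. With at least 3 counts the tumor-bearing pattern was left for 1 of 6 genes, Sftpb, against 6.37% of 9473 genes, and the tumor-free pattern for 1 of 6, Sftpa1, against 2.74%. Counts in both groups were found for 4 of the 8 genes, against 68.5%, and with at least 3 counts for 4 of 6, against 90.9%. Among genes with 4 to 8 counts, the range Sftpb falls in, 12.6% of 2312 genes were counted in tumor-bearing libraries alone. The tumor-bearing pattern is the more frequent one among all genes too. That group has 1 library more and a higher summed total, 486964 against 343709 counts. The part of either in this was not tested.

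The other genes of the lung lists were also counted in part. Beside the 10 genes, 9 lists of lung epithelial and adenocarcinoma markers held 83 genes. Of these, 41 had 0 counts in all libraries, against 43.8% of all 23725 genes. Of the 42 with counts, 32 had them in both groups, against 68.5% of the 13344 genes with counts. Tumor-bearing libraries alone had counts for 6, against 18.8%, and tumor-free libraries alone for 4, against 12.7%. Of these genes 9 were tested, 5 with a log2 fold change above 0 and 4 below, and 0 were called (median 0.15, beside 0.04 over all genes tested, lowest unadjusted p = 0.0625, edgeR). Their log2 fold changes ranged from -0.39 to 0.57.

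Among other alveolar type 2 genes, Sftpd, which encodes surfactant protein D, had 86, 5, 70 and 18 counts in tumor-bearing and 11, 54 and 20 in tumor-free replicates (log2 fold change 0.57, SE 0.92, adjusted p = 0.990, edgeR). Abca3, the surfactant lipid transporter, had 0 everywhere, Napsa, an aspartic protease of these cells, had 0 to 6, Cxcl15 1 to 10 and Slc34a2 0 to 2 counts. Of the alveolar type 1 genes, Emp2, a membrane protein, had 45, 78, 102 and 203 counts with and 61, 53 and 96 without a tumor (0.51, SE 0.24, adjusted p = 0.990, edgeR). Akap5 had 20 to 121, Rtkn2 23 to 57, Pdpn 14 to 38, Hopx 7 to 27 and Clic5 7 to 13 counts. Ager, a classic marker of these cells, and Aqp5, a water channel, had 0. With Cldn18, 7 of the 10 genes of this list had counts in both groups. In the club cell list 9 of 10 genes were at 0, and Cbr2 had 0 to 3 counts. Of the ciliated cell genes, Ccdc78 had 47 to 138 and Mcidas 23 to 53 counts, but Foxj1, the master regulator of motile cilia, had 0. Dnah5 had 0 to 7 and Rsph1 0 to 2 counts.

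Of the junction and identity genes other than Cdh1 and Epcam, Ocln had 4 to 11, Ehf 0 to 19, Grhl2 1 to 6 and Cldn4 1 to 4 counts. Of the 21 genes in this list, 7 had counts in both groups and 10 were at 0 in all libraries. Those at 0 included Cldn3, Cldn7, Esrp1, Elf3 and Rab25. Krt8 was the only one of 7 simple keratins with a count. The lung transcription factor genes Foxa1 and Foxa2, which act with NKX2-1, had 0 to 4 and 0 to 3 counts, and Foxp2 5 to 14. Of the adenocarcinoma list, Tspan8 had 0 to 11, Hnf4a 0 to 7, Lgals4 0 to 5 and Hmga2 0 to 6 counts. In the basal cell list, Ngfr, which marrow stroma also expresses, had 15 to 42 counts.

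Trp63, which encodes the basal cell factor p63, had 1, 1, 4 and 2 counts in tumor-bearing and 0 in each tumor-free replicate. Over the group this is 16.4 CPM (95% exact Clopper-Pearson interval 7.09 to 32.4), an interval that reaches below the limit of 8.73 CPM in tumor-free mice. Counts in all 4 tumor-bearing libraries and none in tumor-free ones were seen for 0.562% of the 2312 genes with 4 to 8 counts, and for 1 of the 10 lung list genes in that range. In the fit without the low count filter Trp63 was not called (adjusted p = 0.793, edgeR). The other basal cell genes Krt5, Krt14 and Krt15 had 0 counts in all libraries.

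**Figure D4:**
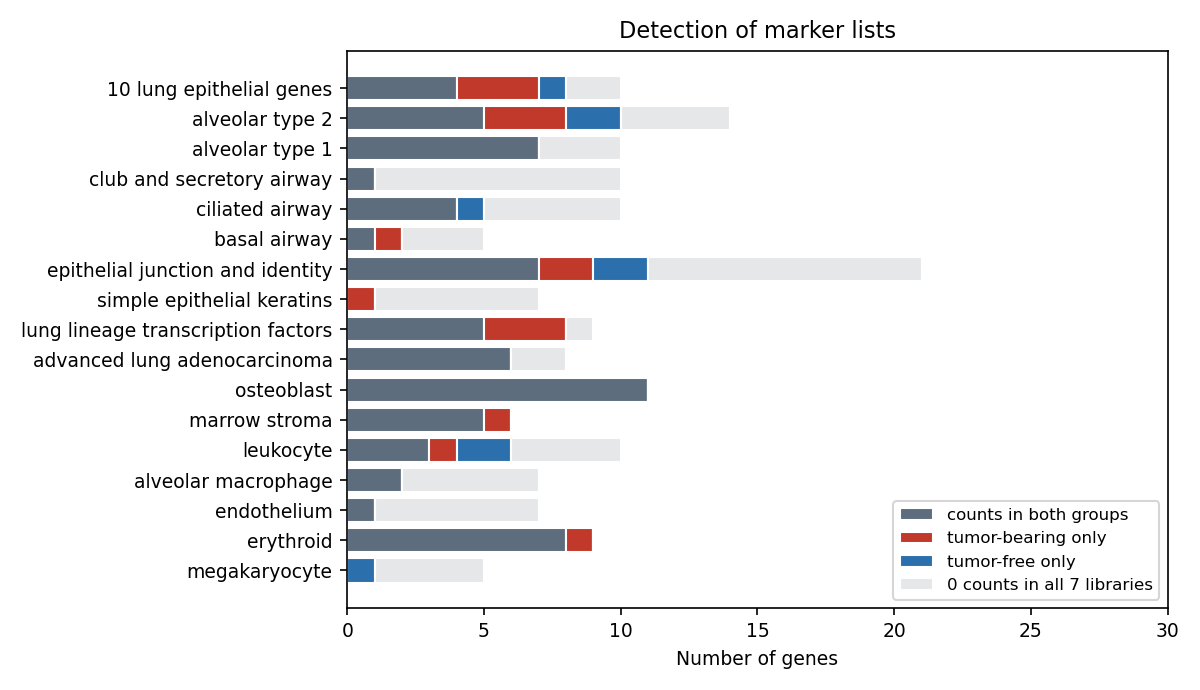
Number of genes (horizontal axis) in each marker list (vertical axis) with counts in both groups, in tumor-bearing libraries alone, in tumor-free libraries alone, or with 0 counts in all 7 libraries. Of the 10 lung epithelial genes 4 are in both groups, 3 in tumor-bearing libraries alone and 1 in tumor-free ones alone, while all 11 osteoblast genes are in both.

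Markers of other cells were read beside these genes. The 11 osteoblast genes summed to 1086 to 1647 CPM in tumor-bearing and 1593 to 2604 CPM in tumor-free libraries, and the 6 marrow stroma genes, most of it Lepr, to 713 to 946 CPM and 617 to 775 CPM. The leukocyte list had 6 of 10 genes with counts and a summed level of 386 to 459 CPM in tumor-bearing and 366 to 455 CPM in tumor-free libraries, most of it Itgam and Csf1r. The erythroid list had 9 of 9 genes with counts, at 173 to 233 CPM and 203 to 447 CPM, and the endothelial list 1 of 7, at 0 to 5.89 and 0 to 8.14 CPM. Of the leukocyte genes, Lyz2 and S100a8 were at 0, while Cd3e had 5, Ptprc 3, S100a9 2 and Mpo 1 counts in all libraries together. Of the endothelial genes, Pecam1 was at 0 and Cdh5 had 2 counts. These sums are on unscaled totals. The part of such cells, or of a different share of osteoblast RNA, in the counts of Cldn18, Epcam, Cdh1 and Nkx2-1 was not tested.

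Internal stretches of A, at which an oligo-dT primer can start, were searched in the longest transcript of each gene. A window of 12 bases with 11 or more A, outside the final 100 bases, was found in 0 of the 4 counted lung genes, against 39.2% of 2857 genes with at least 50 counts. It was found in 0 of the other 6, against 17.8% of genes with 1 to 9 counts and 8.85% of genes with 0. Cdh1 held 12 positions of 25 bases that transcripts of at least 50 genes share, and the other 9 genes held none. Such positions were thus in 1 of the 4 counted genes, against 41.6% of genes with at least 50 counts, and in 0 of the other 6, against 10.1% of genes with 1 to 9 counts and 9.19% of genes with 0. Genes on the opposite strand overlap Cldn18 (Gm16004), Nkx2-1 (Gm26973) and Krt8 (Gm36026), but in each case outside the last 500 bases. The sources used here do not say whether counting used strand.

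Across the 7 libraries, the levels of Epcam and Cldn18 went together (Pearson r = 0.94, Spearman rho = 0.96 on log2(CPM + 1)), and r was 0.93 over the 5 libraries left without the 2 farthest from the median of Cldn18. Cldn18 was the gene most like Epcam among 2494 ranked. Epcam and Nkx2-1 had r = 0.76 (rho = 0.86). For this pair r was 0.95 over the 5 libraries left without the 2 farthest from the median of Nkx2-1. These 5 still held tumor-bearing replicate 4, which stood out for Epcam. Nkx2-1 and Cldn18 had r = 0.65 (rho = 0.71), but r = -0.12 over 5 libraries. Cdh1 had r = -0.64 to Cldn18 and -0.53 to Epcam (-0.71 and -0.75 over 5 libraries). To Nkx2-1 it had r = -0.05 (-0.58 over 5 libraries). The 2 libraries left out were chosen by Cldn18 in its pairs, by Epcam for Cdh1 and Epcam, and by Nkx2-1 in the rest. The values over 5 libraries thus do not all rest on the same libraries. All these correlations are descriptions over libraries, 7 at most, that share their depth with every gene. With 2494 or 2495 genes ranked over 7 points, the highest r is high for any gene. The genes most like Cdh1 were Skint7 (0.94), Zbtb8a (0.93) and Bloc1s6 (0.91), those most like Cldn18 Rbak (0.97), Clcn3 (0.95) and Amy2a4 (0.95), and those most like Nkx2-1 Osbpl8 (0.98), Hps3 (0.97) and Mlph (0.95). After Cldn18, Gm15910 (0.94) and Amer1 (0.93) were most like Epcam.

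Tumor-bearing replicate 4, in which Epcam stood out, held the highest level of 3 of the 4 counted genes. Of the 16 lung list genes beside the 10 with at least 20 counts, 4 had their highest CPM on unscaled totals in it, against 1 to 3 in each other library. It held the highest level of 15.7% of all 4445 genes with at least 20 counts.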

How the data were processed

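The authors deposited raw counts, 1 file for each mouse, with genes named by Entrez ID. Per the labels' protocols, RNA came from cells sorted into Trizol and libraries of 3′ ends were made with a customised CEL-Seq protocol with unique molecular identifiers. TopHat2 2.0.10, SAMtools and mm10 are named in the submitters' processing notes. Neither the counting program nor the handling of the identifiers is stated there or in the labels. RefSeq symbols (GRCm38.p6) matched 23666 of 23725 IDs, and 1 listed gene had no match.

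Genes were filtered with filterByExpr (minimum count 10, minimum total 15), scaled by TMM (factors 0.945 to 1.05) and tested with edgeR 4.0.16 (glmQLFit, robust; glmQLFTest; R 4.3.3) with age as a factor, with p-values adjusted by Benjamini-Hochberg at 0.05 over all genes tested. The alternatives used DESeq2 1.42.0, other scalings, no filter, no age term, 31-week mice, a replicate block and each library left out. The fit was tested on simulated data. Separate mice are the replicates. Transcripts came from GENCODE vM21 (23035 genes). Names followed a rule: the 10 genes, up to 4 genes per lung list with most counts, 3 genes most like each member with at least 20 counts, Trp53, Col1a1, Runx2, Ptprc and Pecam1. Others were named after their values were seen. A further allele of the mice and its gene, also in the rule, are not reported here. The genes and the 17 lists were chosen with earlier results of these data known.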

Additional observations from a re-analysis of the deposited data

Results flagged for a closer look

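Epcam was flagged because tumor-bearing replicate 4, with 518 CPM, stood far from the other 3 tumor-bearing libraries, of which the next had 84.1 CPM and the lowest 13.7 CPM. The gap was 0.861 of the range, above Dixon's 95% critical value for 4 samples. Cdh1 was flagged for the opposite end: the same library had 143 CPM where the other 3 lay between 191 and 199.7 CPM, a gap of 0.846 of the range. Chance flags about 1 in 20 groups, and 9.86% of the 2495 genes tested had such a gap among the tumor-bearing libraries. Replicate 4 is also the only tumor-bearing mouse of 23 weeks, so this mouse and its age cannot be told apart.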

How the results depend on the processing

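No alternative called a gene, and Cdh1 (log2 fold change 0.38 to 0.66) and Cldn18 (-0.77 to -0.17) kept their direction, without a call, in all 14 alternatives. Epcam turned below 0 in 5 alternatives: -1.16 in 31-week mice only, -1.22 with the replicate block, -0.32 with DESeq2, -1.19 without tumor-bearing replicate 4 and -1.13 without tumor-free replicate 3. It was 0.06 to 0.67 in the other 9. Of the 5, all but DESeq2 give tumor-bearing replicate 4 no weight in the contrast. This library is absent from the 31-week fit and from the fit without it. In the block it has no tumor-free mouse of its number. Without tumor-free replicate 3 it is the only mouse of its age, and the age term fits it alone. These turns are thus not separate, nor are the 14 alternatives separate comparisons for any gene. The cause of the turn with DESeq2 was not tested. Nkx2-1 did not pass the filter with all libraries. It was 0.36 with no filter, 0.88 without tumor-free replicate 1 and -0.04 without tumor-free replicate 2, uncalled in each. Sftpb, Sftpa1, Sftpc and Krt8 were tested without the filter alone, and Scgb1a1 and Krt18 in no fit.

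The summed level differed by -83.9 CPM (tumor-bearing minus tumor-free), by -333.7 to 88.2 CPM with 1 library left out, by -368.6 CPM in 31-week mice and by 112.8 CPM without Cldn18. The pooled SD was 426.9 CPM with all libraries. It was 227.1 CPM in 31-week mice and 201.3 CPM without tumor-bearing replicate 4 (-333.7 CPM), so both of these differences were larger than their own SD. They were not tested. With a minimum of 3 counts over the tumor-bearing libraries together, 1 gene instead of 3 was confined to them. With a minimum of 3 counts in a single library, 5 instead of 8 genes were detected. With 1 library left out and a minimum of 1 count, these numbers were 2 to 3 and 7 to 8.

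The replicate block called 0 genes (37 unadjusted, edgeR). Same-numbered mice did not deviate together (correlations -0.20, -0.12 and -0.12), so the numbers were not taken as pairs. The median SE of a log2 fold change was 0.34, and genes with a few counts are not resolved at these depths.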

Other observations

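Alveolar macrophages, the resident phagocytes of the air spaces, were also looked for by a list of 7 markers. Siglecf, which encodes the sialic acid-binding receptor in the study's title, had 1, 3, 6 and 5 counts in tumor-bearing and 7, 6 and 3 counts in tumor-free libraries, so the groups overlapped. Mrc1 had 0 to 2 counts, and Chil3, Marco, Ear2, Fabp4 and Krt79 had 0 in all 7 libraries. The megakaryocyte list had counts for 1 of 5 genes, Itga2b, with 3 counts in tumor-free replicate 3.

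St14, an epithelial membrane protease, had 25 counts in tumor-free replicate 2 and 0 in the other 6 libraries, and Tekt1, a protein of cilia, had 1, 1 and 2 counts in tumor-free and 0 in tumor-bearing libraries. Both were named after their values were seen.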
